A study of Mus musculus with 6 samples.

Results

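The glutathione S-transferases are enzymes that join the tripeptide glutathione to electrophilic compounds, and 10 of their genes were followed here across 6 organoid arrays: *Gstt1*, *Gstt3*, *Gstm1*, *Gstm2*, *Gstm5*, *Mgst1*, *Gstk1*, *Gsta4*, *Gstp1* and *Gsto1*. They were chosen by gene name, and every non-control probe carrying one of these names was taken, which gave 16 probes of the 55681 on the array and 10 of its 34298 gene names. The arrays compared organoids of the esophagus, which is lined by a stratified squamous epithelium, with organoids of the stomach, which is lined by a columnar epithelium. Epithelial cells of both organs, labelled as mice 1, 2 and 4, were grown as 3D organoids at passage 0, which gave 3 esophagus and 3 stomach arrays, each from a separate animal within its tissue. The labels use the same mouse numbers for both organs, and values within a mouse take a number as the same animal. All carry the label of a control, and harvest was on day 8 for 5 of the cultures and on day 7 for the stomach culture of mouse 4. The labels name the mice by number only. The study's methods list wild-type C57BL/6 females among its animals but do not tie a strain, sex or age to these arrays, and no transgene is named for them. Both media held EGF, noggin, FGF-10, N-acetyl-L-cysteine (itself a precursor of cysteine for glutathione), nicotinamide, a TGF-β receptor kinase inhibitor, a ROCK inhibitor, B27 and N2. The medium for stomach glands also held WNT3A- and R-spondin1-conditioned medium and gastrin, and the medium for the esophagus also held forskolin, so that tissue and medium cannot be told apart in any value given below.

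The cytosolic enzymes of this family fall into sequence classes named by Greek letters, here theta, mu, alpha, pi and omega, whereas the kappa enzyme lies in mitochondria and peroxisomes and the microsomal enzymes are unrelated membrane proteins with the same activity. Their conjugates are pumped out of the cell and trimmed to mercapturates, and many of the genes are known to respond to the transcription factor NRF2, which binds antioxidant response elements. In the foregut they are known as part of the defence of the epithelium against ingested and refluxed compounds.

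Probe sequences were set side by side because members of a class can be similar enough for a probe to pick up a neighbour. The probes of *Gstm1* at chr3:107815595-107815654 and of *Gstm2* at chr3:107784948-107785007 (mm9, the build of the scanner files, both on the minus strand) run across the end of the coding sequence. Over the last 39 coding bases, stop codon included, 28 bases (71.8%) are identical, and the 11 that differ are in capitals.
Gstm1: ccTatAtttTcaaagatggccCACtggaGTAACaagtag
Gstm2: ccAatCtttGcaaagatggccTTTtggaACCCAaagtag

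The brighter probe of *Gstp1*, which the files place at chr19:4035908-4036723 across a splice junction, is closer to a probe of the neighbouring gene *Gstp2* at chr19:4040983-4041042. The 2 probes share a stretch of 35 bases with 30 identical bases (85.7%), and the 5 that differ are in capitals.
Gstp1: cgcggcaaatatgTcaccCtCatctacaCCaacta
Gstp2: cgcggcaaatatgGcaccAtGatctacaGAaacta

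The 2 probes of *Gstt1* are shown because they gave different results. The bright probe is assigned to the RefSeq transcript and lies at chr10:75246560-75246619. Its last 30 bases hold the hexamer AATAAA, the usual polyadenylation signal, in capitals. The dim probe lies at chr10:75259864-75259923 and is assigned to an Ensembl transcript, and its last 30 bases hold the letters GTGAG, with which many introns begin, in capitals.
Gstt1 bright probe: ggtAATAAActggggcttgatttgggcttt
Gstt1 dim probe: atgctggactatctgcagGTGAGcacctca

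Of the 10 genes, 5 were lower in esophagus than in stomach organoids, *Gstt1*, *Gstt3*, *Mgst1*, *Gstm2* and *Gstk1*, with differences from 2.03-fold for *Gstk1* to 42.0-fold for *Gstt1*. No gene was higher in the esophagus, and 5 did not pass the test, *Gstm5*, *Gstm1*, *Gsta4*, *Gstp1* and *Gsto1*. These calls are limma's at an adjusted p under 0.05 (Benjamini-Hochberg over all probes), with each gene represented by its probe of highest mean. Over all 34298 genes, 7.7% were called lower in the esophagus and 7.15% higher. Among the 15645 genes that, like all 10 members, were well above background on all 6 arrays, 10.6% were lower and 11.1% higher. At an unadjusted p under 0.05, 6 members were lower and 0 higher, where 13% of all genes were lower and 14.5% higher, and 17.9% and 23.1% of those well above background on all arrays. With a minimum of 1.5-fold as well, 6 members were lower and 0 higher, where 15.4% and 17.8% of the genes well above background were. With the scanner's processed signal scaled to its 75th percentile in place of the deposited values, 3 were lower, without *Mgst1* and *Gstk1*. The median difference of the 10 genes (esophagus minus stomach, log2) was -0.88, against 0.09 over the genes well above background on all arrays. By probe, 8 of 16 were lower and 0 higher, where 6.22% of all probes were lower and 5.94% higher. The esophagus arrays lay wholly below the stomach arrays for 6 genes and wholly above for 1, *Gstm1*, where 14.7% and 16.9% of all genes did so, and 17.8% and 23.7% of those well above background on all arrays. In these bulk samples, fewer cells of a type and less RNA per cell cannot be told apart.

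**Figure D1:**
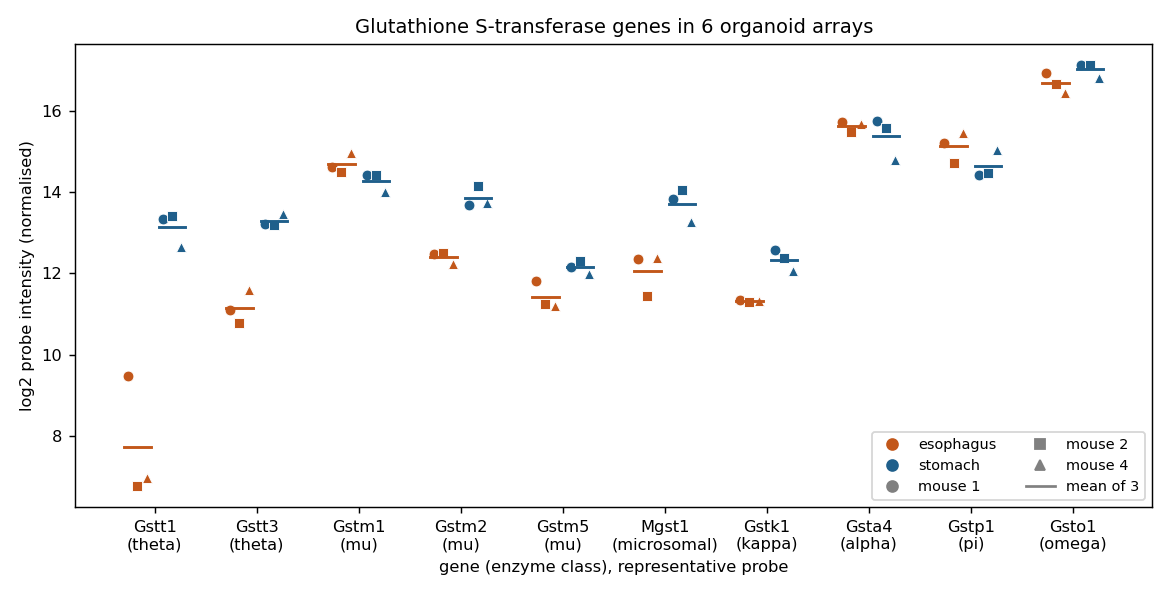
Log2 probe intensity (normalised by the authors, vertical axis) of the representative probe of each gene (horizontal axis, with its enzyme class) on the 3 esophagus and 3 stomach arrays; each point is 1 array, its shape gives the mouse, and each line is the mean of 3. The esophagus points lie below all stomach points for 6 genes, above them for *Gstm1*, and among them for *Gsta4*, *Gstp1* and *Gsto1*; levels of different genes come from different probes and cannot be compared with each other.

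*Gstt1*, a theta-class enzyme known for its action on small halogenated compounds, differed most. Its bright probe read 9.47, 6.77 and 6.97 (log2 intensity, mice 1, 2 and 4) in esophagus organoids and 13.33, 13.40 and 12.65 in stomach organoids. All esophagus arrays lay below all stomach arrays, and the esophagus array of mouse 1 stood well above the others. The difference was -5.39 (log2, SE 0.66, 95% interval -6.93 to -3.85, adjusted p = 0.00139 by limma), that is, the level in the stomach was 42.0-fold that in the esophagus. Without the esophagus array of mouse 1 it was -6.26. Within mice 1, 2 and 4 the differences were -3.86, -6.64 and -5.68. The dim probe read 5.86 to 6.33 in the esophagus and 5.87 to 6.34 in the stomach, and its groups overlapped (difference -0.12, SE 0.20, adjusted p = 0.786). The result for *Gstt1* thus rests on the probe of the RefSeq transcript.

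Columnar markers were read on the same esophagus array. *Krt19* read 12.04 there against 10.14 and 10.78 in mice 2 and 4, and *Krt18* 11.57 against 10.31 and 11.41, where stomach arrays read 16.26 to 16.66 for both. *Krt8* read 5.50 there and 5.83 and 5.21 in mice 2 and 4, *Tff1* 5.66 against 5.67 and 5.30, and *Gkn2* 4.85 against 4.78 and 4.63, where stomach arrays read at least 16.65. Of the 10 markers, *Gkn2*, *Pgc* and *Muc6* were at background on every esophagus array. Summed over the 10 columnar markers on the intensity scale, the log2 level was 19.69 to 19.76 in stomach organoids. In esophagus organoids it was 11.48 to 12.92, mostly from *Krt19* and *Krt18*, with mouse 1 the highest. The part of other cells in the *Gstt1* value of that array was not tested.

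*Gstt3*, the theta-class neighbour of *Gstt1*, read 11.09, 10.77 and 11.59 in esophagus and 13.20, 13.20 and 13.46 in stomach organoids. The groups did not overlap, and the stomach arrays spanned 0.26 on the log2 scale. The difference was -2.14 (SE 0.23, 95% interval -2.66 to -1.61, adjusted p = 0.000614 by limma), a 4.40-fold higher level in the stomach. The esophagus array of mouse 1, high for *Gstt1*, was the middle one here.

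Among the mu-class genes, which encode enzymes that act on aromatic and epoxide electrophiles, *Gstm2* was lower in the esophagus on every probe. Its brightest probe read 12.47, 12.49 and 12.23 in esophagus and 13.68, 14.14 and 13.73 in stomach organoids. The groups were separate, with a gap wider than the spread within either. The difference was -1.45 (SE 0.18, 95% interval -1.86 to -1.04, adjusted p = 0.0013 by limma), a 2.73-fold higher level in the stomach. The other probes gave -1.30 and -1.19 (adjusted p = 0.00579 and 0.00439), so the 3 probes agreed in direction and call. With the processed signal scaled to its 75th percentile, the brightest probe passed (adjusted p = 0.0417) and the others did not (adjusted p = 0.0642 and 0.0664).

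*Gstm1*, its neighbour on chromosome 3, did not pass the test on either probe. The brighter one read 14.62, 14.50 and 14.96 in esophagus and 14.41, 14.43 and 13.99 in stomach organoids. The esophagus arrays all lay above the stomach arrays, but by as little as 0.07. The difference was 0.41 (SE 0.19, 95% interval -0.034 to 0.86, adjusted p = 0.248 by limma), and the other probe gave 0.26 (adjusted p = 0.36). The files place the brighter probe on chromosome 5, at chr5:117082490-117082549, and not in the mu cluster, so its gene is less certain. It shares 25 of 27 aligned bases with a probe of *Gstm3* whose own difference was -4.38. The other probe lies in the cluster and is the one set beside a *Gstm2* probe above, with 28 of 39 bases identical, and that *Gstm2* probe differed by -1.19. Whether either *Gstm1* probe takes up the signal of a neighbour was not tested.

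*Gstm5*, at an end of the cluster, read 11.80, 11.23 and 11.20 in esophagus and 12.15, 12.30 and 11.98 in stomach organoids. The groups did not overlap, and the esophagus array of mouse 1 came within 0.17 of the lowest stomach array. The difference was -0.73 (SE 0.20, 95% interval -1.20 to -0.26, adjusted p = 0.0586 by limma), which missed the threshold. Without the esophagus array of mouse 1 it was -0.93 and passed (adjusted p = 0.0153).

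**Figure D2:**
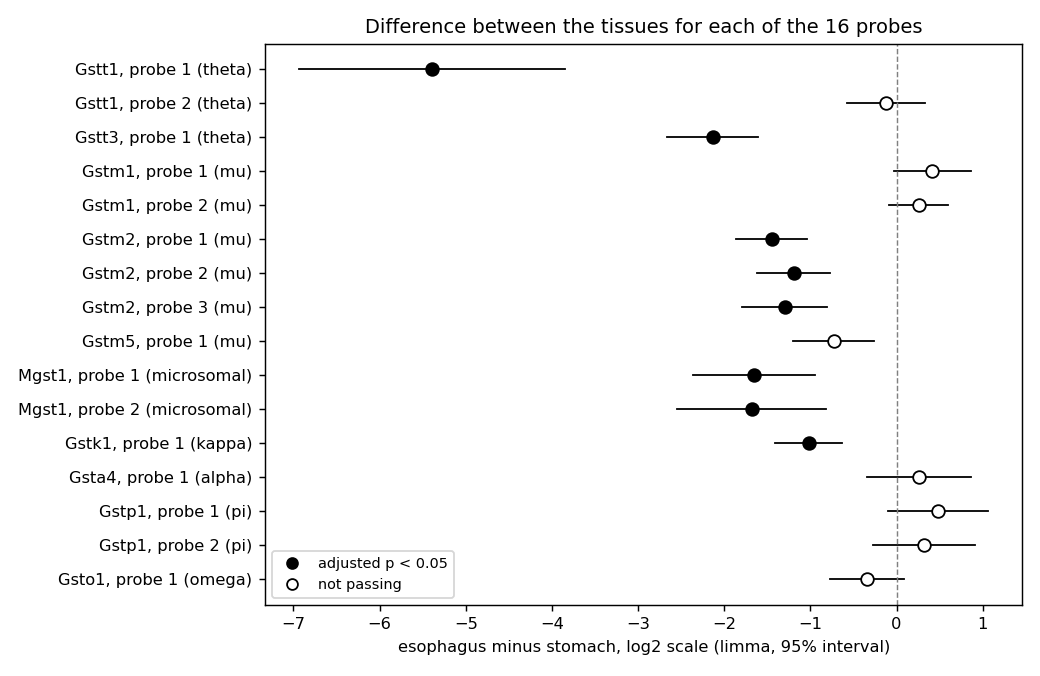
Difference between esophagus and stomach organoids (log2 scale, horizontal axis) of each of the 16 probes with limma's 95% interval (3 arrays per tissue); filled points have an adjusted p under 0.05. The 8 filled points, of 5 genes, all lie to the left, from -5.39 for *Gstt1* to -1.02 for *Gstk1*.

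*Mgst1*, the microsomal enzyme of the endoplasmic reticulum and outer mitochondrial membrane, which also reduces lipid hydroperoxides, read 12.35, 11.44 and 12.37 in esophagus and 13.81, 14.04 and 13.27 in stomach organoids. The groups did not overlap, with the esophagus array of mouse 2 and the stomach array of mouse 4 as the lowest of their tissues. The difference was -1.65 (SE 0.30, 95% interval -2.36 to -0.95, adjusted p = 0.0104 by limma), a 3.15-fold higher level in the stomach. The other probe gave -1.68 (adjusted p = 0.0235). The difference within a mouse was -2.60 in mouse 2 and -0.90 in mouse 4. The call was lost without the stomach array of mouse 1 (adjusted p = 0.0552) or of mouse 2 (adjusted p = 0.0538), and with the scanner's processed signal scaled to its 75th percentile (adjusted p = 0.0528).

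*Gstk1*, the kappa-class enzyme, read 11.34, 11.30 and 11.31 in esophagus and 12.58, 12.36 and 12.07 in stomach organoids. The esophagus arrays were nearly the same (SD 0.02, n = 3) and all lay below the stomach arrays. The difference was -1.02 (SE 0.17, 95% interval -1.41 to -0.63, adjusted p = 0.00628 by limma), a 2.03-fold higher level in the stomach. With the processed signal scaled to its 75th percentile it was -0.72 and did not pass (adjusted p = 0.2).

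*Gsta4*, an alpha-class enzyme known for clearing the lipid peroxidation product 4-hydroxynonenal, read 15.73, 15.48 and 15.68 in esophagus and 15.75, 15.58 and 14.78 in stomach organoids. The groups overlapped, and the stomach array of mouse 4, harvested a day earlier, lay 0.80 below the next lowest stomach array. Its probe is printed on 10 spots of each array, and the spots of 1 array had an SD of 0.08 to 0.16, which measures the spread within an array and not between cultures. The difference was 0.26 (SE 0.26, 95% interval -0.34 to 0.86, adjusted p = 0.629 by limma), and without the stomach array of mouse 4 it was -0.034.

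*Gstp1*, the pi-class enzyme, known for its high level in many tumours, read 15.21, 14.71 and 15.45 in esophagus and 14.42, 14.47 and 15.03 in stomach organoids on its brighter probe. The groups overlapped. The difference was 0.48 (SE 0.25, 95% interval -0.09 to 1.06, adjusted p = 0.299 by limma), and the other probe gave 0.32 (adjusted p = 0.535). The probe of *Gstp2* with which it shares the stretch above gave 0.22 (adjusted p = 0.636), and whether either probe also takes up the other gene's signal was not tested.

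*Gsto1*, the omega-class enzyme, known as a thioltransferase and dehydroascorbate reductase rather than a conjugating enzyme, read 16.93, 16.66 and 16.42 in esophagus and 17.12, 17.12 and 16.81 in stomach organoids. The groups overlapped. The difference was -0.34 (SE 0.18, 95% interval -0.77 to 0.09, adjusted p = 0.324 by limma). For the 5 genes that did not pass, the intervals thus reach to -1.20 for *Gstm5*, 1.06 for *Gstp1*, 0.86 for *Gstm1* and *Gsta4* and -0.77 for *Gsto1*.

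Across the 10 genes, the stomach array of mouse 4 was the lowest of the stomach arrays for 7, where it was the lowest for 38% of all genes well above background. The esophagus array of mouse 2 was the lowest of the esophagus arrays for 7 of the 10, against 33.6% of all such genes. The members share these arrays, so these counts describe 2 arrays and not 7 separate observations each.

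The theta and mu classes lie in gene clusters, and the neighbours of the members there were compared. In the theta cluster on chromosome 10 the order by probe position is *Gstt3*, *Gstt1*, *Gstt4* and *Gstt2*. *Gstt2*, which encodes a theta-class enzyme, was lower in the esophagus (difference -4.80, SE 0.22, adjusted p = 6.13e-06 by limma), with 6.05, 5.87 and 6.33 in esophagus and 10.49, 11.19 and 10.98 in stomach organoids. *Gstt4* rose above background on 1 array in all, a stomach array. Genes on both sides of *Gstt4* were therefore lower in the esophagus, and *Gstt4* itself was too dim to place.

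In the mu cluster on chromosome 3 the order by probe position is *Gstm5*, *Gstm7*, *Gstm6*, *Gstm3*, *Gstm2*, *Gstm1* and *Gstm4*, and the genes did not move as a block. *Gstm7*, above background on 2 of the 3 esophagus arrays, was lower there (difference -1.88, adjusted p = 0.00723), and so was *Gstm2* as above, whereas *Gstm6* was higher (1.31, adjusted p = 0.000825) on its brightest probe and on its other probes above background (1.18 and 1.21). *Gstm6* read 10.89, 10.62 and 10.78 in esophagus and 9.35, 9.51 and 9.49 in stomach organoids. For *Gstm3* the probes disagreed. The one at chr3:107766615-107766674 differed by -4.38 (adjusted p = 3.98e-05 by limma), with means of 7.66 in esophagus and 12.04 in stomach organoids. The representative one, at chr3:107769290-107770549, differed by -0.26 (adjusted p = 0.652), with means of 11.09 and 11.35. It was thus the brighter one in the esophagus but not in the stomach. *Gstm1* and *Gstm4* did not pass on any probe in the cluster.

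**Figure D3:**
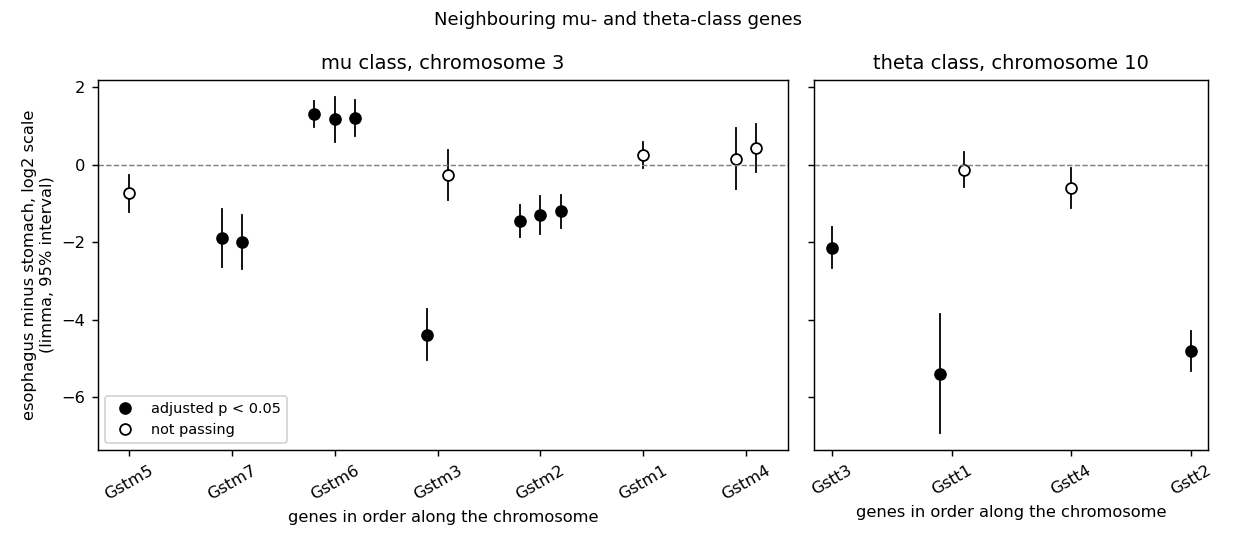
Difference between esophagus and stomach organoids (log2 scale, vertical axis, with limma's 95% interval) for the mu-class genes of chromosome 3 and the theta-class genes of chromosome 10, in chromosome order (horizontal axis); each point is 1 probe, and probes below background in both tissues are left out unless they represent their gene. *Gstm6* (1.31 on its brightest probe) lies above 0 between *Gstm7* (-1.88) and *Gstm3*, whose probes differ (-4.38 and -0.26).

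Promoters were read because 5 of the members were lower in the esophagus and because the family is known for NRF2 control. RefSeq promoter windows (GRCm38.p6, 250 bases before to 50 after a start) matched 9 of the 10 genes by symbol, in 12 windows, and *Gsta4* was not among them. Both strands were searched for the core of the antioxidant response element, TGACNNNGC, and for the AP-1 site TGANTCA, which reads the same on both strands. The first was in the windows of *Gstm5*, on the plus strand starting 42 bases before the start, and *Mgst1*, on the minus strand starting 56 bases before it, and 12.4% of all 32851 windows hold it. The AP-1 letters were in the windows of *Gstm5*, 176 bases before the start, and *Gstp1*, 74 bases before it, and 7.81% of all windows hold them. Such matches are a description of letters, and 3 of 9 genes had either. Of 7 other motifs searched on both strands, CCAAT was in the windows of 5 of the 9 genes (*Gstt1*, *Gstt3*, *Gstm1*, *Gstm2* and *Gstk1*) and in 37.4% of all windows, and the GC box GGGCGG in those of 5 genes (*Gstm5*, *Mgst1*, *Gstk1*, *Gstp1* and *Gsto1*) and in 35.7% of all. The SOX letters ACAAAG were in the windows of 3 genes (18.7% of all windows), the TATA box TATAAA in those of 2 (13.6%), and the GATA letters AGATAA in those of 1 (11.2%). The HNF4 letters CAAAGTCCA (0.475% of all windows) and the FOXA letters TGTTTAC (3.65%) were in those of 0 genes.

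The 100 bases before the start are printed for the genes with a match there, with the match in capitals, and for *Gstt1* and *Gstt3*, the members with the largest differences, whose windows hold neither. The stretches lie at chr6:138140427-138140526 (*Mgst1*, plus strand), chr3:107895754-107895853 (*Gstm5*, plus), chr19:4037913-4038012 (*Gstp1*, minus), chr10:75797732-75797831 (*Gstt1*, minus) and chr10:75781423-75781522 (*Gstt3*, minus) in GRCm38.p6.
Mgst1: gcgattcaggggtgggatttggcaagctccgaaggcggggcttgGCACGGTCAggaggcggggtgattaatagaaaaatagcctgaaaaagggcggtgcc
Gstm5: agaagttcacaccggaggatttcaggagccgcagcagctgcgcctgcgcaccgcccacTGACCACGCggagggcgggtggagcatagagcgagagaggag
Gstp1: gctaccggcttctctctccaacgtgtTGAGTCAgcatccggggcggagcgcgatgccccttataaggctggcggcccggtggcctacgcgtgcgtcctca
Gstt1: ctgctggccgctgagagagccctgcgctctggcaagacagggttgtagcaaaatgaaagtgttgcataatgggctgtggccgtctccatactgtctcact
Gstt3: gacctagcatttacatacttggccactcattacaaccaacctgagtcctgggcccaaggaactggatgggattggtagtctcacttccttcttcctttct
*Mgst1*, with the antioxidant core, was lower in the esophagus, *Gstm5*, with the core and the AP-1 letters, did not pass the test, and neither did *Gstp1*.

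The remaining glutathione genes were counted in 5 lists. Of the 79 genes of these lists on the array, 19 were lower and 8 higher in the esophagus, against 7.7% and 7.15% of all genes, and the median difference was -0.16. Of the 79, 66 were well above background on all arrays, and 10.6% of all such genes were lower and 11.1% higher, so that the 8 higher genes lie near the background. The count of higher genes was 5 with the mouse as a block, 2 without the stomach array of mouse 1 or of mouse 2, and 5 without the esophagus array of mouse 2. Among 19 other glutathione transferase genes, 6 were lower and 2 higher. The largest differences were those of *Gstt2* (-4.80), of *Mgst3*, a microsomal enzyme (-3.21, adjusted p = 0.00485), and of *Ltc4s*, leukotriene C4 synthase (-3.09, adjusted p = 2.95e-05). *Mgst3* read 9.19, 10.94 and 11.19 in esophagus and 14.01, 13.75 and 13.19 in stomach organoids. The low esophagus array of mouse 1 thus widened its difference. *Gstm6* (1.31) and *Gstp3* (1.14, adjusted p = 0.0494) were the ones higher in the esophagus, and the call of *Gstp3* sat at the threshold. The count of higher genes was 1 with the mouse as a block, and 1 without the stomach array of mouse 1 or 2 or the esophagus array of mouse 2 or 4.

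The genes of glutathione synthesis and turnover went both ways, with 4 lower, 3 higher and 10 not passing out of 17. *Slc7a11*, the cystine transporter that supplies the limiting amino acid, was higher in the esophagus by 1.64 (SE 0.21, adjusted p = 0.00174), with 10.67, 10.68 and 10.57 in esophagus and 8.90, 8.68 and 9.44 in stomach organoids. *Gclm*, the modifier subunit of the rate-limiting glutamate-cysteine ligase, was higher by 1.81 (SE 0.35, adjusted p = 0.0129). *Gclc*, the other subunit of this ligase, did not pass (difference -0.72, adjusted p = 0.281 by limma). *Chac1*, which degrades glutathione, was higher by 2.93 (SE 0.66, adjusted p = 0.0253), with a wide spread in both tissues. It read 14.98, 14.09 and 12.77 in esophagus and 10.54, 10.27 and 12.25 in stomach organoids. The high stomach array of mouse 4 thus narrowed its difference. *Anpep*, the aminopeptidase that trims extracellular peptides, was lower (difference -6.95, SE 0.59, adjusted p = 0.000177), as were *Gss*, glutathione synthetase (-0.97, adjusted p = 0.0326), and *Chac2*, a relative of *Chac1* (-0.91, adjusted p = 0.0434). *Anpep* read 8.16, 5.89 and 6.21 in the esophagus, so that mouse 1 was the highest, as for *Gstt1*. The count of lower genes was 1 without the stomach or esophagus array of mouse 1 or of mouse 2 and 2 without the stomach array of mouse 4, and that of higher genes was 1 without the stomach array of mouse 1 or of mouse 2.

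Of 12 peroxidase and glutaredoxin genes, only *Gpx4*, which reduces lipid hydroperoxides, passed, with a difference of -0.93 (adjusted p = 0.0174), and its call was lost without the stomach or the esophagus array of mouse 2. Without the esophagus array of mouse 4, 2 genes of the list were lower, and 1 was higher without that array or the esophagus array of mouse 2. Of 9 genes of conjugate export and mercapturate formation, 3 were lower. The exporters *Abcc5* and *Abcc3* were lower in the esophagus (differences -4.63 and -3.20, adjusted p = 1.69e-06 and 0.00234), and so was *Acy3*, which deacetylates mercapturates, at a 2.15-fold higher level in the stomach (adjusted p = 0.00408). Of 22 NRF2 regulators and other targets, 5 were lower and 2 higher. The lower ones were led by *Cbr1*, carbonyl reductase (-2.79), *Me1*, malic enzyme (-2.72), and *Ugdh*, which makes UDP-glucuronate (-2.34), and the higher ones were *Nqo1*, a quinone reductase (1.28), and *G6pdx*, which makes NADPH (1.03). The count of higher targets was 0 without the stomach array of mouse 1 or of mouse 2, 1 without the esophagus array of mouse 2 and 5 without the stomach array of mouse 4. *Nfe2l2*, which encodes NRF2 itself, differed by 0.23 (adjusted p = 0.569).

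**Figure D4:**
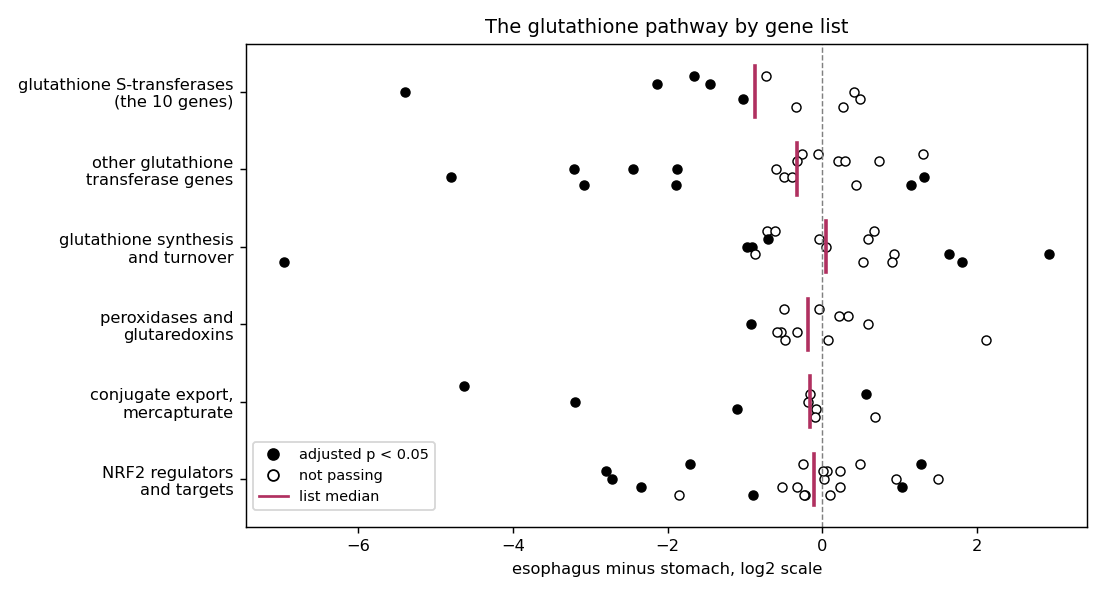
Difference between esophagus and stomach organoids (log2 scale, horizontal axis) of the 10 genes and of the 5 further lists (vertical axis); each point is the representative probe of 1 gene, filled at an adjusted p under 0.05, and the line is the list median. The median of the 10 genes is -0.88, and the medians of the further lists lie between -0.32 and 0.051.

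Over the 6 arrays, the genes whose pattern was most like that of *Gstt1*, by Pearson's correlation among representative probes well above background on all arrays, were a chromosome 6 interval transcript without a gene symbol (r = 0.999), *Ankrd42* (r = 0.999) and *Abcc3* (r = 0.999). For *Gstt3* they were *Ppa2*, *5033418A18Rik* and *Golph3l* (r = 0.996 each). With 6 arrays of 2 tissues, such values mainly record the difference between the tissues, and for *Gstt1* also the array of mouse 1, and they are given as a description only.

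The tissue labels were checked against markers. By representative probe, 7 of 8 squamous markers were higher in esophagus organoids, and all 10 columnar markers were lower. The probes of the eighth squamous marker, *Trp63*, disagreed. Its representative probe was lower in the esophagus (difference -1.22, adjusted p = 0.0249 by limma), whereas its other 3 probes were higher there (adjusted p = 6.99e-07, 9.4e-07 and 4.12e-07), with esophagus means of 12.95, 10.43 and 11.37, and on the 3 stomach arrays these probes were not well above background. Of 9 fibroblast and smooth muscle markers none was well above background on all arrays, and their summed log2 level was 7.98 to 8.17 in the esophagus and 8.11 to 8.20 in the stomach. The summed log2 level of 5 endothelial markers was 8.95 to 9.43 and 9.10 to 9.18. By representative probe, *Kdr* (8.44 to 9.12) and *Pecam1* (5.80 to 6.37) were well above background on every array of both tissues. The other *Kdr* probe read 4.54 to 4.82 and never rose well above background, so the probes of *Kdr* disagreed. The summed log2 level of 7 immune markers came mostly from *Cd68*. It was 12.01 to 14.80 in the esophagus, highest in mouse 1, and 11.37 to 12.55 in the stomach. The representative probes of *Cd3e* (7.23 to 8.34) and *Csf1r* (7.78 to 8.35) were also well above background on every array. The probes of *Csf1r* disagreed, however. A further probe read 4.67 to 5.21 and never rose well above background. Its remaining probe read 5.29 to 8.25 and did so on 3 esophagus arrays but only 2 stomach arrays. *Ptprc*, *Adgre1* and *Lyz2* were not well above background on any array. None of the genes of the last 3 lists passed the test, and their part in the values of the members was not tested. Per array, 45.5% to 51.1% of the spots that are not controls stood clear of background.

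**Figure D5:**
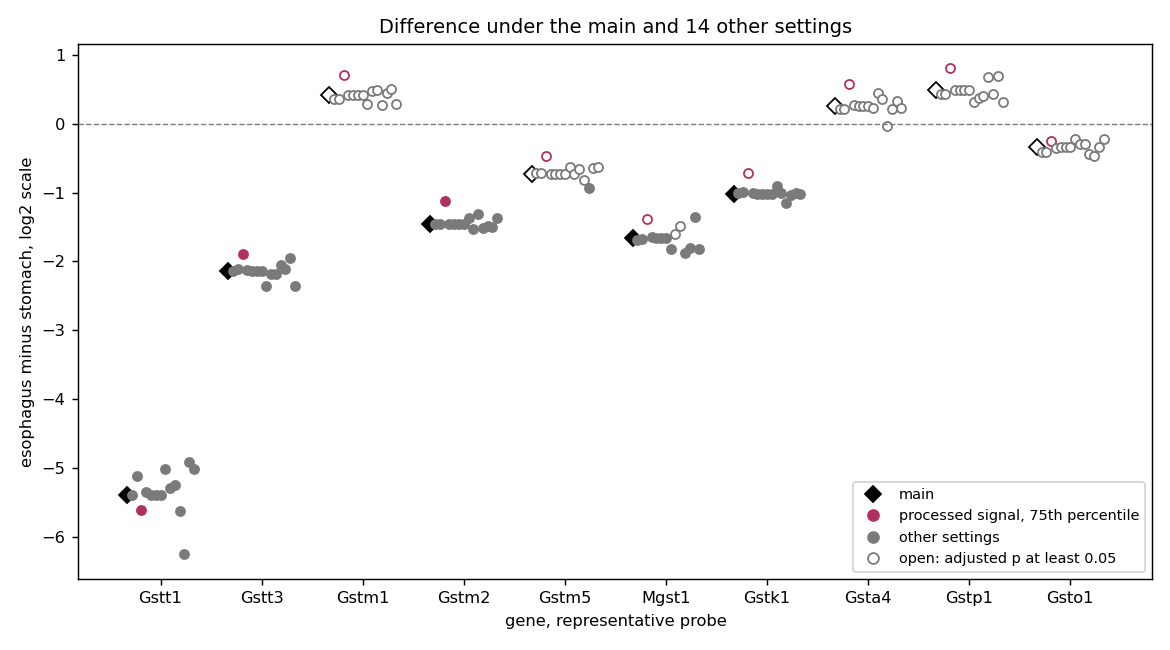
Difference between esophagus and stomach organoids (log2 scale, vertical axis) of the representative probe of each gene (horizontal axis) under the main analysis (diamond) and 14 other settings (circles), open where the adjusted p was at least 0.05. *Gstt1*, *Gstt3* and *Gstm2* are filled throughout, *Gstk1* is open for the scanner's processed signal (-0.72) and *Mgst1* for 3 settings.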

How the data were processed

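RNA of 6 organoid cultures was hybridized to single-color Agilent mouse arrays, and Agilent Feature Extraction (version 11.5.1.1 in the file headers) was used by the authors to read them. In the deposited scanner files are the mean, median, background and processed intensity of each spot. For the deposited log2 table the authors corrected background and applied quantile normalization. Normexp with offset 15 on median intensities and quantile normalization gave it back with a median absolute difference of 0.00433, and its 2029 empty cells were the spots marked as outliers. Log2 values were averaged over the spots of a probe and compared between the tissues by limma (version 3.58.1, R 4.3.3; lmFit and eBayes) with Benjamini-Hochberg adjustment over 55681 probes. A difference is the mean of 3 esophagus arrays minus that of 3 stomach arrays. Scripts were tested on simulated data.

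The labels name mouse 1, 2 or 4 for each array in both tissues, and arrays of a number were taken as the same mouse, although no source used here says that both organs of 1 animal were cultured. For mice 1, 2 and 4, r between the deviations of these arrays from their tissue means was 0.025, 0.012 and -0.0079 over probes, and arrays of different mice gave -0.073 to 0.040. Slide 2 held 1 esophagus array, that of mouse 4, and slide 1 the rest.

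All 10 genes are named. From each further list at most 3 genes per direction that passed are named by size of difference. *Gstm3*, *Gstm4*, *Gstm7*, *Gstt4*, *Gstp2*, *Gclc* and *Nfe2l2* were named beside them for their place or role. A result under this rule is not reported here. The members, lists and motifs were chosen with earlier results of these data known. Names and coordinates are the files' own (mm9), and promoters are from RefSeq. Precision is limited by 3 arrays per tissue.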

Additional observations from a re-analysis of the deposited data

How the results depend on the processing

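Alternatives were the mean signal with normexp offset 16 or 50, the processed signal scaled to its 75th percentile, outlier spots kept, a filter on dim probes, a trended, robust eBayes step, a block for the slide or for the mouse, each array left out, and other counting rules. The number of the 10 genes lower in the esophagus was 5 under all of these except 3 with the processed signal, where the median difference of all probes was 0.19 against 0.02 in the main analysis and *Mgst1* and *Gstk1* were lost, 6 at an unadjusted p under 0.05 and 1.5-fold (15.4% of all genes well above background on all arrays), and 4 to 6 with an array left out. The number higher was 0 under all. *Gstt1* (bright probe), *Gstt3* and the brightest probe of *Gstm2* passed under all 14 alternatives run per probe. The difference of *Gsta4* was -0.034 to 0.45 with an array left out, below 0 without the stomach array of mouse 4 (adjusted p = 0.943) and above 0 otherwise. With the replicate block (mouse) the count of lower members was 5, and the pathway genes higher in the esophagus were 5 in place of 8. Leaving out an array gave 2 to 12 of these and 14 to 20 lower, with the lowest count of higher genes without the stomach array of mouse 1 or 2 (2 each) and 5 without the esophagus array of mouse 2. The cause of these changes was not tested. The slide as a block leaves out, in effect, the esophagus array of mouse 4. The number of arrays, 3 per tissue, limits what small differences can show, tissue and medium were changed together, and dim probes compress differences.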
